A study of Mus musculus with 2 samples.

Results

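The genes of oxidative phosphorylation were examined in primordial germ cells (PGCs) of the mouse, from which eggs and sperm later arise. The genes were taken by symbol: the protein-coding genes of the mitochondrial genome, and the nuclear genes named as subunits of complex I (Ndufa, Ndufb, Ndufc, Ndufs and Ndufv), complex II (Sdha to Sdhd), complex III (Uqcr and Cyc1), complex IV (Cox4 to Cox8) and complex V (Atp5). The rule found 100 of the 18877 genes in the table, 13 encoded in the mitochondrial genome and 87 in the nuclear genome. It did not use expression. By their symbols, Ndufab1 (127 ± 16.9 TPM, SD, n = 2), which encodes the acyl carrier subunit of complex I, and Usmg5 (4853 ± 475), which encodes a small ATP synthase subunit, fell outside it. So did Atpif1 (1705 ± 112), the ATPase inhibitor.

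The study had 1 group, PGCs of C57BL/6 embryos at embryonic day 9.5 that were enriched with an antibody to the surface antigen SSEA1 and received no treatment, with 2 libraries labelled replicate 1 and replicate 2. The methods describe the embryos as female, and no allele or transgene is named for these samples. Values were deposited as TPM, that is, reads divided by gene length and brought to a common sum per library, so that genes can be set side by side within a library. With 1 group of 2 libraries there was no comparison of conditions and no test, and each gene is given as its value in both libraries and as mean ± SD (n = 2). The labels call the libraries biological repetitions, and nothing else in them describes separate dissections.

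Replicate 1 held 15912459 recovered reads and replicate 2 held 5458684. The PGC label was checked against 8 marker genes, and 8 of 8 were at 1 TPM or more in both libraries, a level that 60.0% of all genes reached. They ran from 6.98 TPM for Prdm1 to 5044 TPM for Dppa3. Their summed level was 5699 TPM in replicate 1 and 5721 TPM in replicate 2, most of it from Dppa3. Markers of red blood cells were also present, with 5 of 6 measured genes at 1 TPM or more in both libraries and a summed level of 3983 TPM in replicate 1 and 3765 TPM in replicate 2, led by the embryonic globin Hba-x at 2198 ± 188 TPM, while the erythroid factor Klf1 was at 0.275 and 1.56 TPM. The summed levels of macrophage, endothelial and mesenchymal markers were between 2.37 and 19.4 TPM in both libraries. The part of red blood cell RNA in the values below was not tested, and fewer cells of a type and less RNA per cell cannot be told apart in bulk samples.

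Oxidative phosphorylation couples the oxidation of NADH and succinate to the synthesis of ATP. Complex I (NADH dehydrogenase) and complex II (succinate dehydrogenase) pass electrons to ubiquinone, complex III passes them on to cytochrome c, complex IV (cytochrome c oxidase) passes them to oxygen, and complex V (ATP synthase) uses the proton gradient that complexes I, III and IV build. Complexes I, III, IV and V are mosaics of subunits from both genomes, whereas complex II is encoded by the nucleus alone. The mitochondrial subunits are transcribed as long polycistronic RNAs from both strands of a circular genome and are cut apart largely at the tRNAs that lie between them.

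The genes of oxidative phosphorylation were among the most abundant transcripts of the PGCs. In both libraries 96 of the 100 genes were at 1 TPM or more, against 60.0% of all genes in the table. A level of at least 100 TPM in both libraries was reached by 78 of them, against 6.10% of all genes, and these were 11 of the 13 mitochondrial genes and 67 of the 87 nuclear genes. Among the 100 genes of the table with the highest mean TPM, 18 belonged to oxidative phosphorylation, and among the highest 1000 there were 74. Together they held 12.8% of all TPM in replicate 1 and 12.2% in replicate 2 (12.5 ± 0.427%), of which the mitochondrial genes held 6.66% and 5.53% and the nuclear genes 6.18% and 6.70%. Which of the groups held more differed between the libraries. With the near-identical copies described below added to the genes they match, the shares were 6.59 ± 0.859% for mitochondrial and 10.3 ± 0.895% for nuclear genes. Counted as reads, without division by length, mitochondrial genes took 4.07% and 3.46% of reads and nuclear genes 4.86% and 5.36%.

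The mitochondrial genes spanned a very wide range of levels. The gene mt-Cytb, which encodes cytochrome b of complex III (chrM:14145-15288 on GRCm38, plus strand), stood at 32566 and 25420 TPM in replicates 1 and 2 (28993 ± 5053), the second highest mean in the whole table, between Gm12338, described below, and the germ cell gene Dppa5a. At the other end, mt-Nd4l, a small membrane subunit of complex I (chrM:9877-10173), stood at 32.9 and 38.3 TPM (35.6 ± 3.77). The ratio of mt-Cytb to mt-Nd4l was 989 in replicate 1 and 664 in replicate 2, even though both lie on the same strand and within the same polycistronic transcript. Of the pair, only mt-Nd4l has a near-identical copy in the table, described below, and what this did to the ratio was not tested.

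Behind mt-Cytb came mt-Co1, the catalytic subunit of complex IV, at 8379 and 7423 TPM (7901 ± 676). The small ATP synthase subunit gene mt-Atp8 followed at 8261 and 7045 TPM (7653 ± 859). In both libraries mt-Co1 was above mt-Atp8, but the gap between their means was smaller than the SD of either. The proton channel subunit gene mt-Atp6 was at 3778 and 3102 TPM, the complex I gene mt-Nd2 at 3388 and 3479 TPM, and the complex I gene mt-Nd1 at 3667 and 3096 TPM. Of these 3 genes, mt-Nd2 changed place between the libraries, and mt-Atp6 was above mt-Nd1 in both by less than the spread of either.

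Below them, the order was the same in both libraries. The gene mt-Nd6, the single subunit gene on the opposite strand (chrM:13552-14070, minus strand), was at 2501 and 2094 TPM (2298 ± 287). It was followed by mt-Nd4 at 1983 and 1738 TPM (1861 ± 173) and mt-Nd5 at 1065 and 913 TPM (989 ± 108), which encode the antiporter-like proton-pumping subunits of complex I. The ratio of mt-Nd6 to mt-Nd5, whose ends overlap on opposite strands by 14 bases, was 2.35 and 2.29. As the strand setting of the counting is not given, RNA of the other strand along all of mt-Nd6 may be part of its value. The remaining catalytic-core genes of complex IV were far below mt-Co1. The gene mt-Co3 was at 549 and 587 TPM (568 ± 26.4), and mt-Co2, which carries the copper centre that receives electrons from cytochrome c, was at 308 and 290 TPM (299 ± 12.4). These genes contribute 1 subunit each to the same enzyme. The ratio of mt-Co1 to mt-Co2 was 27.2 in replicate 1 and 25.6 in replicate 2 (26.4 ± 1.17), a gap far wider than that between the libraries. The chromosome 1 copies described below match 681 of the 684 bases of mt-Co2 but only 483 of the 1545 bases of mt-Co1. What this did to the ratio was not tested. The lowest were mt-Nd3 at 50.2 and 61.0 TPM (55.6 ± 7.67, from 166 and 71 reads) and mt-Nd4l, which rested on 93 and 38 reads.

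**Figure D1:**
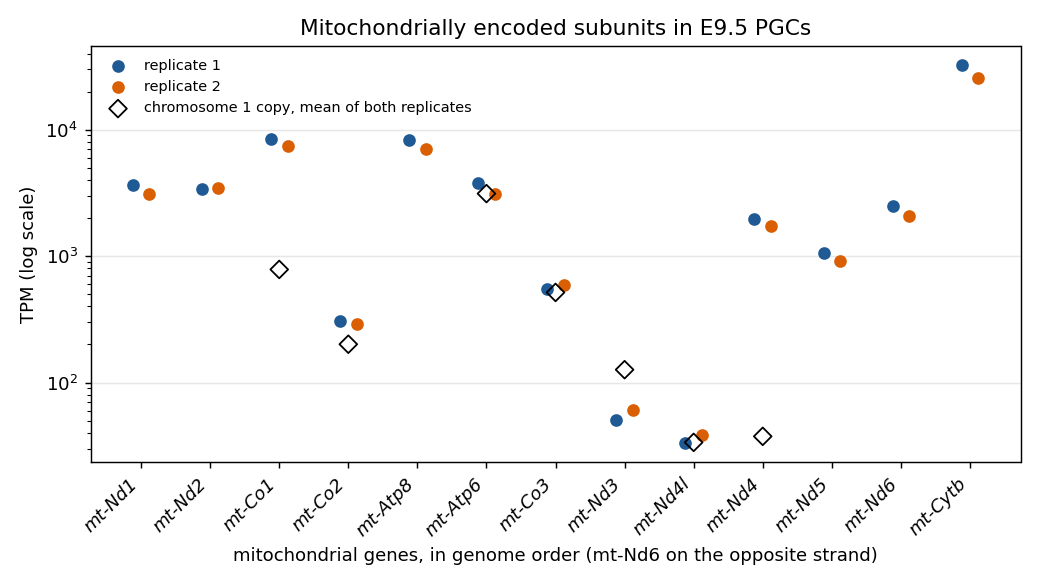
TPM (log scale) of the 13 mitochondrial genes in their order along the mitochondrial genome, with a point for each replicate and an open diamond for the near-identical copy on chromosome 1 where the table holds 1. The replicates lie close to each other at every gene, mt-Cytb stands highest at 32566 and 25420 TPM, and the diamonds sit on or near the points of mt-Co2, mt-Atp6, mt-Co3 and mt-Nd4l and above those of mt-Nd3.

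Several neighbouring mitochondrial genes share bases, and without known strand and overlap handling their reads cannot be fully told apart. The longest overlap lies between mt-Atp8 and mt-Atp6, which share 43 bases on the same strand (chrM:7927-7969, GRCm38, plus strand) and are translated from 1 bicistronic mRNA. It is shown because mt-Atp8 is only 204 bases long, so the overlap is a large part of the gene. The capitals mark the start codon of mt-Atp6 and the stop codon of mt-Atp8.
mt-Atp8 and mt-Atp6 overlap: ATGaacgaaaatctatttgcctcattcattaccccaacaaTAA

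The level of mt-Atp8 was 2.19 and 2.27 times that of mt-Atp6. The genes mt-Nd4l and mt-Nd4, also translated from a shared bicistronic mRNA, overlap by 7 bases on the same strand. Yet mt-Nd4 was 60.2 times as high as mt-Nd4l in replicate 1 and 45.4 times in replicate 2. Copies described below match 294 of the 297 bases of mt-Nd4l and 876 of the 1378 bases of mt-Nd4, and what this did to the ratio was not tested.

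The mouse nuclear genome holds stretches copied from the mitochondrial genome, and such copies bear on 8 of the 13 genes. A copy was counted where an annotated transcript matched the gene over at least 100 bases and 50% of its own length at 95% identity or more. The table held 10 such copies, 7 of them in a block of chromosome 1 that runs from mt-Nd4 back to mt-Co1 on the minus strand and 3 on chromosome 2. The copies of mt-Atp6 (Gm10925, 678 bases), mt-Co3 (Gm28437, 783 bases), mt-Co2 (Gm28661, 681 bases), mt-Nd4l (Gm10222, 294 bases) and mt-Nd4 (Gm28439, 876 bases) matched without a mismatch over their full length. Reads inside such stretches have no base that tells the genomes apart.

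Reads recovered from the TPM were present for both members of most pairs. Gm10925 had 22892 reads in replicate 1 and 6100 in replicate 2, beside 24456 and 7063 reads for mt-Atp6. Gm28437 had 3947 and 1312 reads, beside 4095 and 1538 for mt-Co3. Gm28661 had 1346 and 441 reads, beside 2002 and 664 for mt-Co2. The copy Gm10222 had 94 and 33 reads, beside 93 and 38 for mt-Nd4l. In these 4 pairs the copy thus held between 0.664 and 1.01 times the reads of the gene. In contrast, Gm28439, which is as exact a match to its gene, had 326 and 105 reads beside 25976 and 8009 for mt-Nd4. The 5 mitochondrial genes with no copy in the table were mt-Cytb, mt-Atp8, mt-Nd1, mt-Nd6 and mt-Nd5, and each of them was at a mean of 989 TPM or more. The lowest mitochondrial genes, mt-Nd4l, mt-Nd3, mt-Co2 and mt-Co3, all had copies, but so did mt-Co1, mt-Atp6, mt-Nd2 and mt-Nd4. Whether assignment of reads to the copies lowered these 4 values was not tested. The 10 copies together held 0.535% of all TPM in replicate 1 and 0.447% in replicate 2.

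A single base separates some of the pairs. The first 70 bases of mt-Nd3 (chrM:9459-9528, plus strand) and of Gm28438 (chr1:24613050-24613119, minus strand) on GRCm38 are shown because this was the pair in which the copy had more reads than the gene in both libraries, 382 and 157 against 166 and 71. The pair differs by T3C, counted from the first base of mt-Nd3, and the differing base is in capitals.
mt-Nd3: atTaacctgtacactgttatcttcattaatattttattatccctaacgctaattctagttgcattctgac
Gm28438: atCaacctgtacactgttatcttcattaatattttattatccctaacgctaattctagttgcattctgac

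For mt-Co1 the copy Gm29216 covers 483 bases near the end of the gene with 1 mismatch, A1066T, counted from the first base of mt-Co1. The window around it is chrM:6390-6459 on the plus strand and chr1:24616119-24616188 on the minus strand, and the differing base is in capitals.
mt-Co1: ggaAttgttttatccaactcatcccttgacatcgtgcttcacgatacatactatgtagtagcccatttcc
Gm29216: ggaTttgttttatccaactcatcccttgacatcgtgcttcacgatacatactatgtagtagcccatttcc

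Here the copy took a small share, 3640 and 1299 reads against 123065 and 38342 for mt-Co1.

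Levels of the nuclear genes were summarised by complex. On log2(TPM + 1), the median of all 87 was 8.74 in replicate 1 and 8.85 in replicate 2 (8.79 ± 0.0808), against 1.87 for all genes in the table. The highest median was that of complex III at 9.33 and 9.50, over 9 genes, but without tissue forms the median of complex IV was higher, at 9.70 ± 0.00496 against 9.42 ± 0.116. Complex IV followed at 8.83 and 9.11, over 18 genes, and complex I at 8.83 and 8.85, over 39 genes. Complex V, over 17 genes, was at 8.08 and 8.17, and complex II, over 4 genes, at 6.35 and 6.18. The difference between complexes IV and I (0.13 ± 0.180) was within the spread of the replicates, while complex III lay above complex I by 0.51 and 0.64. Complex V minus complex I was -0.75 and -0.68, and complex II minus complex I was -2.48 and -2.67.

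The place of complex V depended on the length by which reads were divided. The deposited TPM divides by all annotated exons of a gene together, and the transcript with the longest coding sequence held a median of 65.7% of those bases over the 82 nuclear genes with a coding transcript. With recovered reads divided by that transcript, the medians of complexes I, III, IV and V came to 9.50 ± 0.0249, 9.69 ± 0.150, 9.78 ± 0.0625 and 9.57 ± 0.0679, and complex V was no longer below complex I. With reads divided by the coding sequence alone, complex V was at 9.17 ± 0.0224 and complex I at 9.26 ± 0.00887, while complexes III and IV were at 10.27 ± 0.111 and 9.35 ± 0.0740. Complex II stayed lowest, at 6.35 ± 0.115 per transcript and 6.12 ± 0.126 per coding base. Both divisions used the reads over all exons of a gene, not only those inside the transcript or coding sequence. They covered only these 82 genes, without the rows annotated as pseudogenes and without Atp5o.

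**Figure D2:**
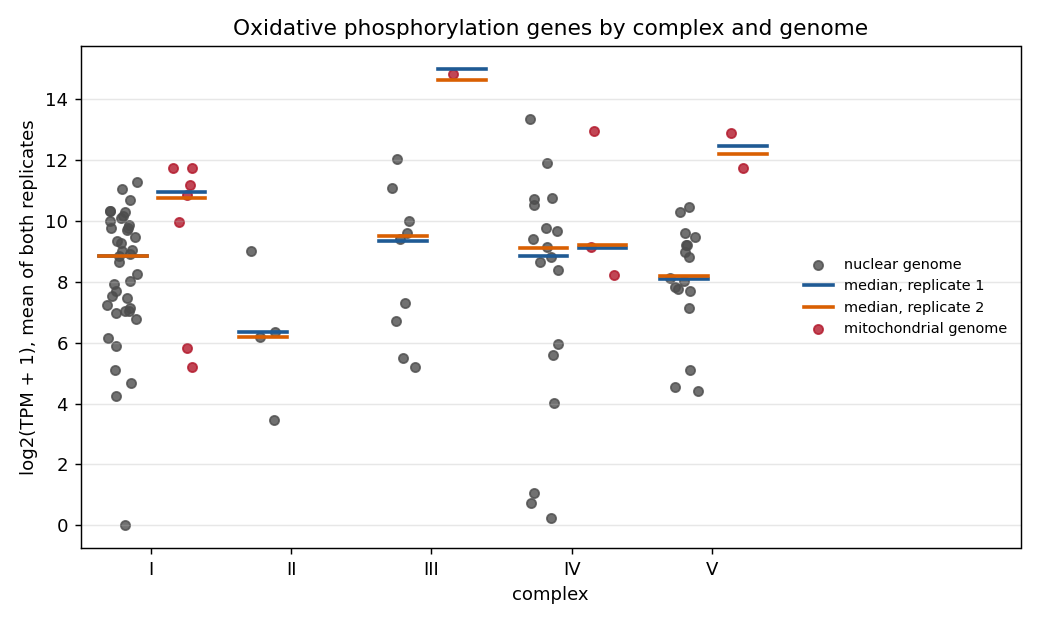
Level of every gene as log2(TPM + 1), mean of both replicates, by complex, with nuclear genes in grey and mitochondrial genes in red; horizontal lines are the medians in replicate 1 (blue) and replicate 2 (orange). Nuclear genes of complexes I, III, IV and V overlap widely around medians from 8.08 to 9.50, the 4 genes of complex II have medians of 6.35 and 6.18, and the mitochondrial genes of complexes I, III and V have medians above those of the nuclear genes.

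The mitochondrial genes were higher than the nuclear genes as a group. Their medians were 11.29 and 11.03, the values of mt-Nd6 on the opposite strand, and lay above the nuclear median by 2.55 and 2.18 (2.37 ± 0.262). Over the 5 mitochondrial and 60 nuclear genes with no near-identical copy the difference was 3.68 ± 0.194. The gap was not even across the complexes. It was 5.66 and 5.13 in complex III, where mt-Cytb is the sole mitochondrial gene, 4.37 and 4.02 in complex V, and 2.13 and 1.91 in complex I. In complex IV the mitochondrial median lay above the nuclear median by only 0.28 and 0.09 (0.18 ± 0.131). Over its 3 mitochondrial genes that median was the value of mt-Co3, whose identical copy Gm28437 held 0.964 and 0.853 times as many reads. What the copy did to this difference was not tested. The direction turned without the tissue forms described below, to -0.55 ± 0.0719, and the difference was -0.12 ± 0.173 over genes at a mean of 1 TPM or more. Mitochondrial genes have no introns and almost no untranslated bases, so the choice of length bears on this contrast too. With reads divided by 1 coding transcript the mitochondrial median was above the nuclear median by 1.59 and 1.32 (1.46 ± 0.190), and with reads divided by the coding sequence alone by 0.84 and 0.54 (0.69 ± 0.208), so the direction of this difference was kept and its size fell by over 1.5 times. In complex IV the direction turned, to -0.80 ± 0.136 per base of 1 coding transcript and -1.56 ± 0.136 per coding base. The reads divided were in each case those over all exons, and only the 82 nuclear genes with a coding sequence were covered. Rows annotated as pseudogenes and Atp5o thus fell out of these medians, and their part in the change was not separated from that of length. Coding bases were a median of 33.6% of the exonic bases of nuclear genes. Dividing by them raises nuclear values relative to mitochondrial ones by calculation, so the smaller difference and the turn in complex IV partly follow from it.

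In complex I, the 14 conserved core subunits that carry out electron transfer and proton pumping are split between the genomes, with 7 encoded by each. The 7 nuclear core genes were low for the complex. Their median log2(TPM + 1) was 7.09 and 6.98, against 9.18 and 9.14 for the 32 other nuclear genes, a difference of -2.09 and -2.15 (-2.12 ± 0.0461). The 32 are supernumerary subunits, which surround the core, and 3 rows annotated as processed pseudogenes, and without pseudogenes the difference was -2.28 ± 0.0269. The lowest was Ndufv1, which binds FMN and NADH (19.8 and 16.0 TPM, 17.9 ± 2.69). Next came Ndufs1, the largest iron-sulphur subunit (26.3 and 23.0 TPM, 24.7 ± 2.36). Higher in the core were Ndufs3 at 130 ± 6.83 TPM, Ndufv2 at 138 ± 4.26, Ndufs8 at 175 ± 0.568 and Ndufs7 at 242 ± 20.8. Neighbours among these named genes did not overlap between libraries, with the narrowest gap between Ndufs3 and Ndufv2. With reads divided by 1 coding transcript, which for Ndufs1 has 2661 bases against 8086 exonic bases, the difference was -2.55 ± 0.148. This value also leaves out the pseudogenes, which have no coding sequence.

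The highest nuclear genes of complex I were all supernumerary. Ndufb6 was at 2435 and 2540 TPM (2488 ± 74.2), Ndufa2 at 2031 and 2200 TPM (2116 ± 120), Ndufa4 at 1572 and 1731 TPM (1652 ± 113) and Ndufa1, which is X-linked and needed for assembly, at 1343 and 1211 TPM (1277 ± 93.7). Ndufa4 is now known to copurify with complex IV, and counting it there put the medians of complexes I and IV at 8.74 and 9.13. The lowest row was Ndufa11b, listed at 0 in both libraries, where 3 reads would have been 0.744 TPM in replicate 1 and 2.12 TPM in replicate 2. It is annotated as a processed pseudogene, as are 3 more rows that the rule took in, Ndufb4c (59.0 ± 15.2 TPM), Ndufs6b (109 ± 10.8) and Cox6c2 (330 ± 22.0). Ndufs6b matched Ndufs6 (874 ± 4.37 TPM) over 348 bases at 96.6% identity, and Cox6c2 matched Cox6c (684 ± 85.9 TPM) over 231 bases at 97.0%.

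Complex II was uneven. Sdhb, the iron-sulphur subunit, was at 535 and 502 TPM (519 ± 22.9). The flavoprotein gene Sdha was at 82.7 and 78.4 TPM (80.5 ± 3.03) and the membrane anchor gene Sdhd at 78.9 and 65.4 TPM (72.1 ± 9.56), a pair that did not differ beyond the SD of Sdhd. The other anchor gene, Sdhc, was at 9.84 and 10.03 TPM (9.94 ± 0.136, from 304 and 109 reads). The ratio of Sdhb to Sdhc was 54.4 and 50.1 and that of Sdhb to Sdha 6.47 and 6.41, although the 4 subunits occur once each in the enzyme. For Sdhc the exonic length of 3250 bases, against a coding length of 507, enters this ratio.

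In complex III the small subunits were highest. Uqcrb, which lies near the quinone site, was at 3927 and 4377 TPM (4152 ± 318), Uqcr10 at 2061 and 2272 TPM (2166 ± 149), Uqcr11 at 1037 and 1007 TPM (1022 ± 21.5) and Uqcrq at 719 and 828 TPM (774 ± 76.9). These 4 did not overlap each other. The lowest were the large core subunit genes Uqcrc1 at 41.2 and 30.5 TPM (35.8 ± 7.61) and Uqcrc2 at 106 and 100.2 TPM (103 ± 3.85), with cytochrome c1, Cyc1, between them at 46.2 and 41.7 TPM (43.9 ± 3.21). Cyc1 was above Uqcrc1 in both libraries. The mitochondrial member of the complex, mt-Cytb, was 8.29 and 5.81 times as high as Uqcrb and 705 and 610.2 times as high as Cyc1.

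Complex IV had the highest nuclear gene. Cox7c (chr13:86044816-86046904 on GRCm38, minus strand), a small membrane subunit, was at 9229 and 11556 TPM (10392 ± 1646) and ranked 8 in the table. Cox7a2 was at 3653 and 4048 TPM (3851 ± 279), Cox7b at 1656 and 1775 TPM (1715 ± 84.2), and Cox6b1, which faces the intermembrane space, at 1650 and 1699 TPM (1674 ± 35.1). The last pair differed by less than the SD of Cox7b. Cox4i1, the regulatory subunit that binds ATP, followed at 1448 and 1518 TPM (1483 ± 49.3).

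Several subunits of complex IV exist as a ubiquitous form and a form that is best known from particular tissues, and the ubiquitous form was higher in each pair measured here. Cox4i2, the lung and hypoxia form, had no read in replicate 1 and 1 read in replicate 2 (0 and 0.380 TPM), while Cox4i1 had 21336 and 7865 reads. The heart and muscle form Cox8b had 6 reads and 0 reads (1.75 and 0 TPM), and the testis form Cox8c had 2 and 3 reads (0.459 and 1.96 TPM), beside Cox8a at 403 and 395 TPM (399 ± 5.70). Cox6b2, a testis form, was at 15.4 and 14.8 TPM (15.1 ± 0.377), or 0.924% and 0.866% of its sum with Cox6b1. The testis form Cox7b2 was at 41.9 and 52.4 TPM (47.2 ± 7.43), or 2.47% and 2.87% of its sum with Cox7b. The exception in size was Cox7a1, the heart and muscle form, which was at 483 and 647 TPM (565 ± 116) and made up 11.7% and 13.8% of its sum with Cox7a2. The partners of Cox6a1 (803 ± 38.5 TPM) and of Ndufa4 that are named for tissues or hypoxia, Cox6a2 and Ndufa4l2, had no row in the table, so no value is given for them.

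In complex V the nuclear genes were led by those of small subunits. Atp5k was at 1232 and 1603 TPM (1418 ± 263), Atp5j at 1170 and 1323 TPM (1247 ± 108), Atp5mpl at 726 and 821 TPM (774 ± 67.6) and the central stalk gene Atp5c1 at 750 and 679 TPM (714 ± 49.7). Atp5k and Atp5j overlapped between libraries, as did Atp5mpl and Atp5c1. The catalytic head, built from the products of Atp5b and Atp5a1 in equal numbers, was at 257 ± 5.03 TPM for Atp5b and 217 ± 8.71 TPM for Atp5a1, a ratio of 1.24 in replicate 1 and 1.14 in replicate 2. The lowest were the stalk gene Atp5d at 17.1 and 24.4 TPM (20.7 ± 5.15), Atp5s, a coupling factor that is not a structural subunit, at 24.5 and 20.5 TPM (22.5 ± 2.81), and Atp5g2 at 34.2 and 32.7 TPM (33.5 ± 1.10). The 3 genes Atp5g1, Atp5g2 and Atp5g3 encode the same mature c subunit of the rotor with different import sequences. Atp5g1 was highest at 500.5 and 499 TPM (499.8 ± 0.952), 1.86 and 1.74 times Atp5g3 (279 ± 12.6 TPM) and 14.6 and 15.3 times Atp5g2. The symbol Atp5o, at 595 ± 31.5 TPM, matches 2 genes in the annotation and was left without a length.

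Nuclear genes of oxidative phosphorylation have many processed pseudogenes, and 25 of the 87 had a near-identical copy in the table. For Ndufs6, Ndufs6b and Ndufb4 the only such copy was itself among the 87. The share of all genes with such a copy was not computed. Outside the 87 there were 37 copies, of which 31 were at a mean of 1 TPM or more and 11 at 100 TPM or more. Together they held 3.45% and 4.19% of all TPM (3.82 ± 0.525%) but only 0.485% and 0.587% of reads. Most of that TPM belonged to 1 row. The processed pseudogene Gm12338 (chr11:75599763-75599954, minus strand) was the highest gene of the whole table, at 26689 and 33928 TPM (30308 ± 5119), above mt-Cytb in its mean and in replicate 2 and below it in replicate 1. Its 192 bases are identical to the open reading frame of Cox7c. That shared frame is shown with start and stop codon in capitals, because no read that falls inside it can be placed on either gene by its bases.
Cox7c and Gm12338: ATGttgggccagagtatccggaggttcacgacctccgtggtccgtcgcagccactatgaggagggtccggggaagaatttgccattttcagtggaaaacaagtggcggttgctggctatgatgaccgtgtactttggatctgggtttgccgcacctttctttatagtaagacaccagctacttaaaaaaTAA

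Gm12338 had 48711 recovered reads in replicate 1 and 21778 in replicate 2, beside 99220 and 43696 for Cox7c, which is 0.491 and 0.498 times as many. Divided by 192 against 1131 exonic bases, the pseudogene stood above its parent in TPM. So did Gm15920, which matches Ndufa12 at 99.5% identity (2609 ± 41.4 TPM against 1275 ± 31.5), Gm10039, which matches Atp5g1 at 99.8% (2473 ± 46.9 against 499.8 ± 0.952), and Gm10221, which is identical to 309 bases of Atp5l (396 ± 13.6 against 140 ± 9.10). In each of these 3 pairs the parent had more reads, for example 18684 for Ndufa12 and 9859 for Gm15920 in replicate 1. The other 7 copies at 100 TPM or more were below their parents. They were copies of Cox7c (Gm10012), Cox5b (Gm11273), Uqcrb (Gm2962), Uqcr11 (Gm16418), Atp5h (Gm10250), Atp5k (Atp5k-ps2) and Ndufs5 (BC002163), between 106 and 424 TPM. How the counting divided reads among identical sequences is not given in the sources used here, and what it did to each parent was not tested.

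**Figure D3:**
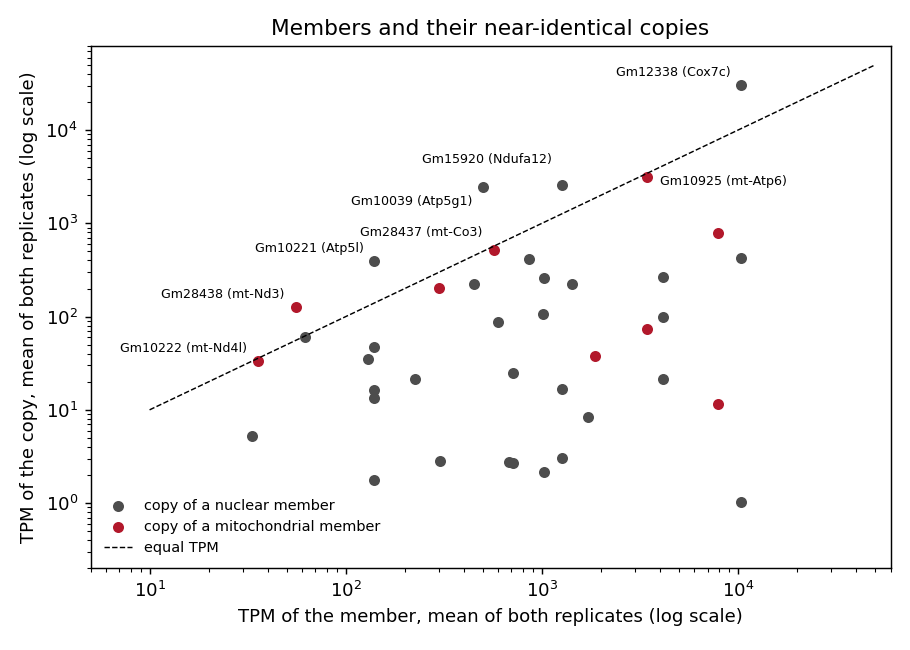
Mean TPM of each near-identical copy at 1 TPM or more against the mean TPM of the gene it copies, both on log scales, with copies of nuclear genes in grey, copies of mitochondrial genes in red and a dashed line at equal TPM. Gm12338 lies above the line at 30308 TPM, Gm10039, Gm15920, Gm10221 and Gm28438 also lie above it, Gm10925, Gm28437 and Gm10222 lie close to it, and most other copies lie well below.

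Overlap with other genes was the second source of shared bases. Of 86 nuclear genes with a position, 31 overlapped another gene of the table, 9 of them on the same strand. The share of all genes with such an overlap was not computed, so these counts say nothing particular about this set. Ndufb8 (645 ± 57.2 TPM) overlaps the predicted gene Gm20538, whose 225 exonic bases were at 7230 ± 755 TPM. Ndufb2 (207 ± 9.11 TPM) overlaps Gm42420 at 1757 ± 77.1 TPM, and Ndufb9 (709 ± 57.8 TPM) overlaps Gm49356 at 1462 ± 111 TPM. Values for these 3 subunits are therefore uncertain.

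Across the nuclear genes, shorter coding sequences went with higher levels. Over 82 genes with a coding sequence, Spearman's rho between coding length and log2(TPM + 1) was -0.48 in replicate 1 and -0.50 in replicate 2, and over the 36 of complex I it was -0.73 in both. These are correlations across genes within a library, which are not independent replicates, and TPM itself contains a division by length. Over 9541 protein-coding nuclear genes at a mean of 1 TPM or more, rho was -0.31 and -0.30. In every bin of length, the median of the oxidative phosphorylation genes was above that of the rest. Up to 300 coding bases, the median over 23 genes was 9.59, against 4.82 for 289 other genes. From 300 to 600 bases it was 8.97 over 39 genes against 4.55, from 600 to 1200 bases 7.29 over 11 genes against 3.25, and beyond 1200 bases 6.35 over 9 genes against 2.60. The bins of 11 and 9 genes are thinly filled.

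**Figure D4:**
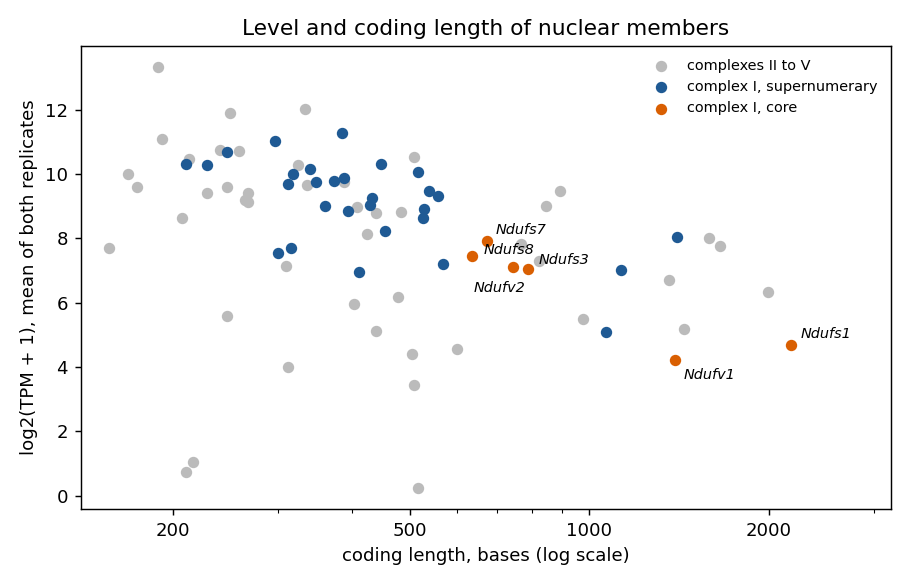
Level of the nuclear genes with a coding sequence that are reported here, as log2(TPM + 1), mean of both replicates, against coding length in bases on a log scale, with the named core subunits of complex I in orange, supernumerary subunits of complex I in blue and complexes II to V in grey. These core subunits lie at the long, low end of complex I, from 17.9 TPM for Ndufv1 to 242 TPM for Ndufs7, and the 3 points near the bottom are Cox8b, Cox8c and Cox4i2.

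Promoters of the nuclear genes were searched for short motifs that are known from respiratory genes, on both strands of the RefSeq windows from 250 bases before to 50 bases after the start (GRCm38.p6). Windows were found for 66 of the 87 genes, 71 in all. The NRF1 motif, GCGCA followed by any base and GCGC, occurred in 18 of the 71, or 25.4%, against 4.60% of all 32851 windows. It occurred in 10.7% of 10011 windows of other genes at a mean of 1 TPM or more. Among 756 windows of other genes at a mean of 100 TPM or more it occurred in 15.1%. The YY1 motif AAGATGGCG occurred in 7 windows, or 9.86%, against 1.40%, 3.40% and 4.63%. The ETS motif CCGGAAG, bound by GABP among others, occurred in 16 windows, or 22.5%, against 8.86%, 19.4% and 25.4%. The general motif GGGCGG was in 38.0% of the windows, against 35.7%, 61.3% and 64.9% of the same 3 sets, and TATAAA in 11.3%, against 13.6%, 7.36% and 7.94%. At least 1 of the NRF1, YY1 and ETS motifs was present in 35 of the 71 windows, or 49.3%, against 13.6%, 30.1% and 40.6%. A match is a description of letters and not a binding site. Of the factors themselves, Nrf1 was at 3.79 ± 0.707 TPM, Gabpa at 27.5 ± 1.08 TPM and Yy1 at 24.7 ± 1.51 TPM.

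A stretch of 60 bases with the NRF1 motif is shown for a gene of each complex in which it was found before the start, with the motif in capitals. They are Ndufa8 of complex I (chr2:36049339-36049398, minus strand), Sdha of complex II (chr13:74350304-74350363, minus strand), Cox6a1 of complex IV (chr5:115349086-115349145, minus strand) and Atp5k of complex V (chr5:108434415-108434474, minus strand). Among complex III genes the motif was found for Uqcrc1, in the bases after its start, and no stretch of it is shown. The motif began 30, 98, 162 and 50 bases before the annotated start.
Ndufa8: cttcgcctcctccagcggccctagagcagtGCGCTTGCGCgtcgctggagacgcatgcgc
Sdha: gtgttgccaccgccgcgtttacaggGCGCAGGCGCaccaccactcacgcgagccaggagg
Cox6a1: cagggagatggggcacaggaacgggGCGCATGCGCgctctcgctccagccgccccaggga
Atp5k: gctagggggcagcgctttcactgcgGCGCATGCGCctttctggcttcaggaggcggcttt

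The libraries were then compared gene by gene. Over 2-fold differences on log2(TPM + 1) were found for 2 of the 100 genes, against 10.2% of all genes. They were Cox8b, the only one lower in replicate 2, with 6 and 0 reads (5.89% of all genes), and Cox8c, the only one higher, with 2 and 3 reads (4.31% of all genes). Among the 96 genes at a mean of 5 TPM or more there were 0, against 4.42% of all genes at that level, and the widest difference was 0.60 for Ndufa10 (41.1 and 26.8 TPM). Lower values in replicate 2 were found for 9 of the 13 mitochondrial genes, against 51.3% of all genes, with a median difference of -0.19. The 4 that were higher were mt-Nd2, mt-Co3, mt-Nd3 and mt-Nd4l. Of the nuclear genes, 46 were higher and 40 lower, with a median of 0.03. Among the 18 nuclear genes of complex IV, 14 were higher in replicate 2, with a median difference of 0.14, against 40.9% of all genes higher by any amount. These are differences between 2 libraries of 1 group.

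**Figure D5:**
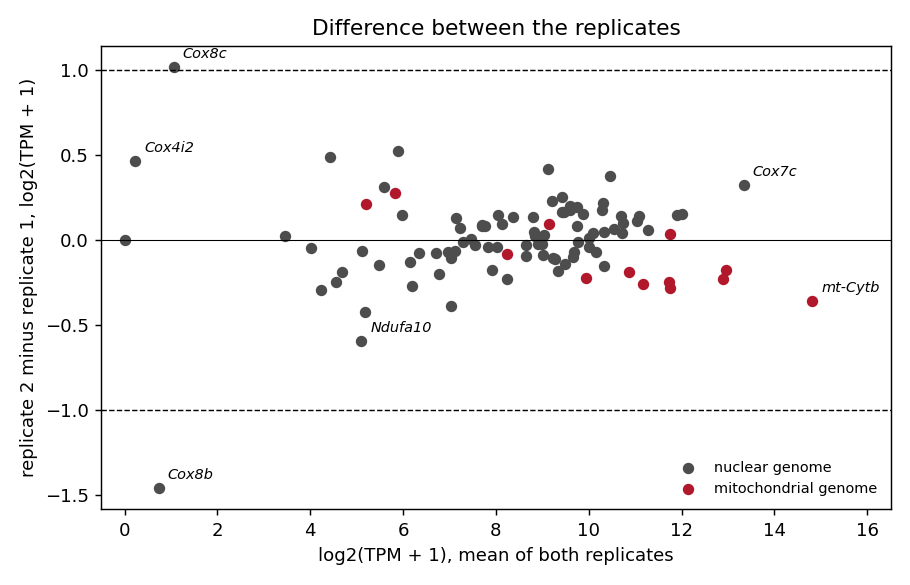
Difference between the libraries (replicate 2 minus replicate 1, log2(TPM + 1)) against the mean level of each gene, with nuclear genes in grey, mitochondrial genes in red and dashed lines at a 2-fold difference. All genes but Cox8b and Cox8c lie within the lines, and 9 of the 13 mitochondrial genes lie below 0.

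Genes that build the complexes without being part of them were measured at much lower levels than the subunits. Of 48 assembly factors, 46 were at 1 TPM or more in both libraries, against 60.0% of all genes, and their median was 4.40 and 4.30, which minus the nuclear subunits was -4.34 and -4.55 on log2(TPM + 1). The highest were Sdhaf4, which assists the flavoprotein of complex II (622 and 687 TPM, 654 ± 46.0), Cox14 (599 and 633 TPM, 616 ± 24.2), which stabilises newly made Co1 protein, Uqcc2 (488 and 515 TPM, 502 ± 18.9), needed for cytochrome b, and Coa3 (366 and 323 TPM, 345 ± 30.5). The lowest were Sco1, a copper chaperone (1.29 and 2.13 TPM), Sdhaf1, which had 49 recovered reads in replicate 1 and 0 in replicate 2 (2.07 and 0 TPM), and Cox15, an enzyme of haem A synthesis (0.386 and 0.670 TPM).

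Genes for the maintenance and expression of mitochondrial DNA were lower still. Of 31 listed genes, 28 were in the table, and their median was 3.68 and 3.36, which minus the nuclear subunits was -5.06 and -5.49. The list also took in factors that act on nuclear promoters, among them Nrf1, Gabpa and Yy1. Slirp, which stabilises mitochondrial mRNA, was at 728 and 842 TPM (785 ± 80.6), the elongation factor gene Tefm at 234 and 215 TPM (224 ± 13.8), the single-stranded DNA binding protein gene Ssbp1 at 120 ± 0.0738 TPM, and Tfam, which packages mitochondrial DNA, at 41.2 ± 0.633 TPM. At the low end were Mterf4 at 3.52 ± 1.12 TPM, the mitochondrial RNA polymerase gene Polrmt at 1.98 TPM in both libraries and Fastkd1 at 1.38 ± 0.937 TPM.

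The mobile electron carriers were represented by cytochrome c and by the enzymes of ubiquinone synthesis. The somatic cytochrome c gene Cycs was at 1462 and 1488 TPM (1475 ± 18.6), and Cyct, the form best known from testis, was at 529 and 527 TPM (528 ± 1.22), or 26.6% and 26.2% of the sum of both. By TPM this was the largest share of a tissue form among the pairs measured, but exonic length enters the ranking. In reads, Cyct had 3292 and 1154 beside 47292 and 16932 for Cycs. Cox7a1 had 2457 and 1158 reads beside 32782 and 12776 for Cox7a2. Cycs had copies of its own in the table, among them Gm10053 at 690 ± 16.6 TPM and Gm10108 at 159 ± 13.1 TPM. Over 15 genes of this list the median was 3.49 and 3.33. The ubiquinone genes ranged from Coq7 at 60.1 ± 1.98 TPM and Coq2 at 19.9 ± 0.102 TPM down to Coq8b at 1.07 ± 0.378, Coq10a at 1.06 ± 0.181 and Coq8a at 0.843 ± 0.406 TPM.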

How the data were processed

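RNA-seq of 2 libraries of E9.5 PGCs was analysed from the deposited table of TPM values. The authors aligned reads to mm10 with Hisat2, counted them with featureCounts and converted them to TPM. The submitters' processing notes also list Bowtie2, RSEM, DESeq2 and R 3.4.2, without their roles. The study's methods name Smart-seq2 and the labels a different library kit, so the chemistry is uncertain, and strand and multimapping settings are not given in the sources used here.

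Symbols were matched to GENCODE M21 (GRCm38), with 1 gene for 18748 of 18877 and for 99 of 100 members. Reads were recovered from TPM times exonic length: among values under 50 reads, 96.7% and 95.8% came within 0.02 of a whole number, and 100% of simulated reads over 18748 genes were recovered in both libraries. No count test was run, since there is 1 group. Limits of a zero are 3 reads and cover counting error only. Values were analysed as log2(TPM + 1), which understates differences of low genes, and lists by their median per library.

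Copies were found with BLAST 2.17.0 on annotated transcripts. Members and lists were chosen with earlier results of these data known. Genes were named as follows: mitochondrial, complex II and complex I core genes, tissue forms and their partners, the 4 highest and 3 lowest genes of each nuclear complex and further list, members over 2-fold apart at a mean of 10 TPM or more, pseudogenes near-identical to a member at 100 TPM or more, and the genes ranked next to mt-Cytb. Values of 1 gene under this rule are not given here. Python 3.11.15, numpy 2.4.6, pandas 2.3.3, scipy 1.17.1 and matplotlib 3.10.9 were used. The alternatives were another pseudocount, filters, scaling, detection limits, memberships and leaving out each replicate. Other lengths, added copies, removal of pseudogenes and all alternatives of the genome difference in complex IV were chosen after seeing the data. So was the mitochondrial minus nuclear difference without genes that share near-identical sequence.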

Additional observations from a re-analysis of the deposited data

How the results depend on the processing

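Leaving aside the removal of a replicate, 76 alternative values of 18 results were computed, of which 44 were kept, 28 moved and 4 reversed. Results with a value in each replicate were kept if they stayed within the SD of the replicates. Counts were judged by a set ratio instead. Median replicate differences were judged by the SD of the difference across genes. The 4 were those of the mitochondrial minus nuclear difference in complex IV, which was 0.18 as deposited, -0.12 with a filter at a mean of 1 TPM, -0.55 without tissue forms, -1.56 per coding base, -0.80 per base of 1 coding transcript and, not reversed, 0.0218 with Ndufa4 counted in complex IV. Rescaling without mitochondrial genes and genes under 200 exonic bases raised the median of all genes by 0.25 on log2(TPM + 1), with the mitochondrial median at 11.49, the nuclear at 9.13, complexes I to V at 9.17, 6.60, 9.75, 9.30 and 8.46, assembly factors at 4.67, mitochondrial DNA expression genes at 3.83, and shares of TPM of 7.68% (mitochondrial) and 8.11% (nuclear). Without genes that share near-identical sequence the mitochondrial median was 11.72 (5 genes) and the nuclear 8.04 (60 genes), a difference of 3.68. A filter at a mean of 1 TPM gave 8.87 for complex I, 9.27 for complex IV, -2.24 for core minus other subunits of complex I and 4.52 for assembly factors. Leaving out the tissue forms gave 9.70 for complex IV, and counting Ndufa4 in complex IV gave 8.74 for complex I. Without members annotated as pseudogenes the core difference was -2.28, per coding base -2.53 and per base of 1 coding transcript -2.55. The mitochondrial minus nuclear difference was 0.69 per coding base and 1.46 per base of 1 coding transcript, both from reads over all exons. All values per coding base or per transcript left out genes without a coding sequence. Adding copies raised the nuclear share to 10.3%. Only genes at 5 TPM or more left 0 members over 2-fold apart.

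No paired analysis was possible because there is 1 group. Leaving out a replicate leaves the value of the other, given in the report. The tissue forms Cox4i2, Cox8b and Cox8c rested on at most 6 reads a library, and 3 reads in replicate 2 are worth more TPM than in replicate 1, so these are the least certain values.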

Other observations

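Other genes of the mitochondrial genome also had high TPM values. The 22 mitochondrial tRNA genes had a median log2(TPM + 1) of 8.87 in replicate 1 and 8.68 in replicate 2 and a summed level of 17732 and 16248 TPM. Their means ran from 7.49 to 4259 TPM. With a median length of 68.5 bases they are shorter than the reads that the methods describe. Reads counted on them can therefore reach into neighbouring genes, and these values may not measure mature tRNA. The ribosomal RNA genes mt-Rnr1 (1188 and 1198 TPM) and mt-Rnr2 (2548 ± 42.6 TPM), whose products are usually the most abundant of this genome, were below mt-Cytb, mt-Co1, mt-Atp8, mt-Atp6, mt-Nd2 and mt-Nd1. The study's methods describe cDNA made from mRNA, and what that did to the ribosomal RNA values was not tested.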
